A study of Mus musculus with 23 samples.

Results

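The expression of 10 genes that gate the passage from G1 to S phase was followed in RNA sequencing of mouse T-cell acute lymphoblastic leukemia (T-ALL). They were chosen by gene symbol from the 24475 genes of the deposited table: the D-type cyclins Ccnd1, Ccnd2 and Ccnd3, the kinases Cdk4 and Cdk6, the inhibitors Cdkn1b, Cdkn2b, Cdkn2c and Cdkn2d, and the pocket protein gene Rb1. All 10 were listed. The 23 samples fell into 3 groups. The controls were 6 thymus samples of normal C57BL/6 mice. WT T-ALL comprised 14 spleens of BALB/c mice that lacked Rag2 and Il2rg, had received a newborn wild-type thymus under the kidney capsule and had developed leukemia. Notch3 KO T-ALL comprised 3 spleens of the same hosts after a graft whose donor lacked Notch3 through a β-galactosidase gene placed in its first coding exon. The wild-type donors were, by the study's methods, congenic mice on the C57BL/6 background, so BALB/c applied to the host cells left in the spleen. The spleens were not sorted, and the hosts could make no T, B or NK cells of their own but kept erythroid and myeloid cells. Tissue, host strain and disease changed together between thymus and T-ALL and cannot be told apart in any comparison with thymus.

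D-type cyclins are the growth-factor-dependent subunits of the G1 kinases. Bound to Cdk4 or Cdk6, they phosphorylate the retinoblastoma protein (the product of Rb1), which then releases E2F transcription factors that drive the genes of S phase. Members of the INK4 family (Cdkn2b encodes p15, Cdkn2c p18 and Cdkn2d p19) bind Cdk4 and Cdk6 and keep cyclins away, whereas p27, the product of Cdkn1b, binds assembled cyclin-kinase complexes. Cyclin D3 is known for its part in the expansion of immature thymocytes, and Ccnd3 and Cdk6 are known as contributors to Notch-driven T-ALL.

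Values are log2(scaled RPKM + 1), where RPKM is reads relative to transcript length and library size, scaled to the same 75th percentile in each library. RPKM is per length, but the length used for each gene is not given in the sources used here. Coding transcripts spanned 627 to 6330 bases for Ccnd2, 277 to 2113 for Ccnd3, 714 to 2053 for Cdk4 and 376 to 11525 for Cdk6. Levels, sums and shares set side by side across genes are therefore approximate. From the step between low values, 1 fragment on a 1-kb transcript was worth 0.0205 to 0.12 scaled RPKM, a 5.85-fold range of depth. That estimate put Ccnd1 at 13 to 123 fragments in thymus and Cdkn2b at 0 to 5 in thymus and 1 to 161 in WT T-ALL. Ccnd2, whose transcripts differ in length, was at as few as 4 fragments in its lowest WT T-ALL library when the shortest is assumed, and Cdk6 at as few as 14 in thymus. Genes at a scaled RPKM of at least 1 numbered 10154 to 11011 per library. Notch3, the gene disrupted in the Notch3 KO donors, read 3.22, 2.59 and 3.74 in Notch3 KO T-ALL 1, 2 and 3. Thymus spanned 2.62 to 4.29 and WT T-ALL 3.17 to 5.78. Notch3 KO T-ALL lay 1.56 lower than WT T-ALL (SE 0.41), which missed the threshold over all genes (adjusted p = 0.101, limma). Against thymus, WT T-ALL was 1.44 higher (adjusted p = 0.000586) and Notch3 KO T-ALL differed by -0.12 (adjusted p = 0.848, both limma). The lowest WT T-ALL library, 110 at 3.17, lay within the Notch3 KO range, and the next, WT T-ALL 7 at 3.98, lay above it. Transcripts of the disrupted allele and of host cells cannot be told apart.

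Other cells were visible in the spleens. The summed level of 8 erythroid markers spanned 23.2 to 359 scaled RPKM for thymus, 748 to 51200 for WT T-ALL and 31300 to 103000 for the Notch3 KO libraries. Of the 8 neutrophil markers all were higher in WT T-ALL than in thymus, as were 7 of 8 macrophage markers, while 7 of 11 T-cell markers were lower and none higher, where 29.3% of all genes were called higher and 22.3% lower. The lower ones were Cd4 (-4.30), Rag1 (-3.63), Cd8b1 (-3.18), Cd8a (-2.67), Rag2 (-2.48), Cd247 (-1.53) and Lck (-0.90). Cd3d (0.06), Cd3e (-0.16), Cd3g (-0.26) and Ptcra (0.44) were not called. All 11 T-cell markers stayed above a mean scaled RPKM of 1 in each group. The study describes its unfractionated T-ALL spleen cells as mostly leukemic on average. In such mixtures fewer cells of a type and less RNA per cell cannot be told apart, and the part of other cells in the differences below was not tested beyond the values given.

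The libraries also fell into 2 sets that the labels do not name. Set A held thymus 5 and 6, WT T-ALL 3, 4, 5 and 7 and all 3 Notch3 KO libraries, and set B held the other 14, with a mean log2 value of 4 marker transcripts of 3.33 to 3.87 against 1.13 to 1.88. The set was called for 6.9% of 11919 genes when it was added to the model, Ccnd3 among them (0.93 higher in set A, SE 0.18, adjusted p = 0.00304, limma) and no other gene of the group. Ccnd2 was 0.94 lower in set A with an adjusted p of 0.0856. Values within the sets are therefore given for the 9 genes tested in WT T-ALL against thymus and between the T-ALL groups. For Notch3 KO T-ALL against thymus they are given for the called genes, and none are given for the sums. For the wider gene list they are given within both sets for WT T-ALL and within set A only for Notch3 KO T-ALL.

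The upstream windows of the kinase genes are shown because both held the E-box CACGTG, a sequence bound by the Myc protein. RefSeq promoter entries (GRCm38.p6) matched 7 of the 10 genes. The sequences are the 250 bases before the start of the RefSeq entry, 5′ to 3′, and capitals mark matches on either strand to CACGTG or to TGGGAA, the core bound by RBPJ, the DNA-binding partner of Notch. Cdk4 (chr10:127063285-127063534, + strand) had 4 E-boxes, 172, 118, 98 and 11 bases before the start, whereas Cdk6 (chr5:3343643-3343892, + strand) had 1 at 220 bases. The Cdk6 entry uses a start that lies inside the gene span given below, downstream of the first base of that span.
Cdk4: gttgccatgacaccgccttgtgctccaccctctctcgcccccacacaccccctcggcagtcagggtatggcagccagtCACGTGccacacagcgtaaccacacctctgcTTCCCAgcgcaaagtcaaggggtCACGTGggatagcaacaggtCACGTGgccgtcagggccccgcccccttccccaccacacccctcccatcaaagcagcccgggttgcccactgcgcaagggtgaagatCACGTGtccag
Cdk6: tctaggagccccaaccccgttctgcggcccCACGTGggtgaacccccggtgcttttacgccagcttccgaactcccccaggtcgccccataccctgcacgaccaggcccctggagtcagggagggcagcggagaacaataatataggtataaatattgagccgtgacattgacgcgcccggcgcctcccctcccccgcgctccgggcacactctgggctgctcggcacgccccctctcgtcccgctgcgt
Of 32851 promoter windows of that length, 6.02% held at least 1 CACGTG and 21.6% at least 1 TGGGAA, and 7 windows (0.0213%) held 4 or more CACGTG. The Cdk4 window also held 1 TGGGAA, read as TTCCCA 141 bases before the start, and so did that of Cdkn2d, a gene that was lower in WT T-ALL, at 209 bases. CACGTG was in the window of none of the 5 matched genes besides the kinases. Neither match says that a factor was bound there in these cells.

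In WT T-ALL Ccnd1 and Cdk4 rose, while the other D-type cyclins, 2 inhibitor genes and Rb1 fell. Ccnd1 was 3.58 higher than in thymus and Ccnd2 3.12 lower, Ccnd3 remained the most abundant of the 3 but was 1.53 lower, Cdk4 was 1.27 higher, and Cdkn1b, Cdkn2d and Rb1 were 1.57, 1.39 and 0.82 lower. Of the 9 genes that passed the filter on low values, 2 were higher, 5 lower and 2 were not called. This share is to be read against a background in which limma called 51.6% of 11919 genes, 29.3% higher and 22.3% lower. The median difference of the 9 genes was -0.82, against 0.08 over all genes. For 6 of the 9, no WT T-ALL library overlapped any thymus library (1 higher, 5 lower), which held for 15.1% of all genes (8.42% higher and 6.64% lower).

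**Figure D1:**
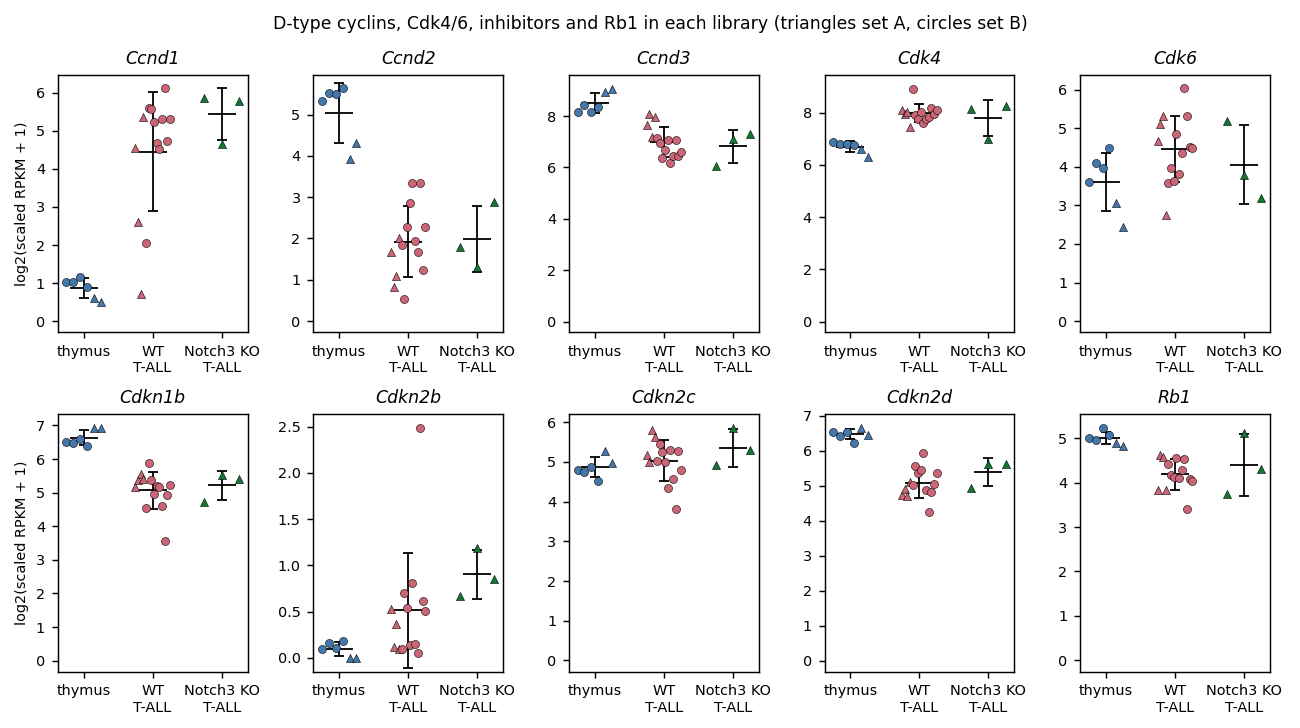
Level of each of the 10 genes in every library as log2(scaled RPKM + 1), with group means and SD as bars, triangles for set A and circles for set B. Ccnd2, Ccnd3, Cdkn1b, Cdkn2d and Rb1 of the 14 WT T-ALL libraries all lie below the 6 thymus libraries, Cdk4 lies above them, and Ccnd1 spreads from 0.71 to 6.11 within WT T-ALL.

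Cyclin D1 (Ccnd1, gene 12443, chromosome 7, 144929931 to 144939925 on the minus strand) was close to silent in thymus, at 1.04, 1.04, 1.16, 0.90, 0.60 and 0.50 in thymus 1 to 6. In WT T-ALL the lowest library was at 0.71, the median at 4.97 and the highest at 6.11. Thus 13 of 14 libraries lay above every thymus library, and WT T-ALL 5 lay inside their range. The difference of 3.58 had an SE of 0.58 and an adjusted p of 2.96e-05 (limma, exact permutation p = 0.000129), a 12.0-fold difference on the scale with the offset of 1. Within set B it was 3.88 (adjusted p = 4.95e-05), and within set A 2.76 (adjusted p = 0.107), where 4 tumors met 2 thymus libraries.

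Cyclin D2 (Ccnd2, gene 12444, chromosome 6, 127125162 to 127152193) went the other way. Thymus 1 to 6 read 5.32, 5.53, 5.50, 5.63, 3.93 and 4.32, and WT T-ALL ran from 0.54 over a median of 1.90 to 3.35. No tumor reached the lowest thymus library. The difference of -3.12 (SE 0.37, adjusted p = 6.07e-07, limma, exact permutation p = 2.58e-05, the smallest that the test can give) corresponded to 8.69-fold lower values. It was -3.36 within set B and -2.73 within set A, both called.

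Cyclin D3 (Ccnd3, gene 12445, chromosome 17, 47505051 to 47599691) was the main D-type cyclin in all libraries. It read 8.14, 8.44, 8.17, 8.37, 8.92 and 9.07 in thymus 1 to 6, and 6.18, 7.00 and 8.08 at the lowest, median and highest WT T-ALL library. The groups did not overlap, although WT T-ALL 4 and 7, both in set A, came close to the lowest thymus library. The difference was -1.53 (SE 0.26, adjusted p = 3.9e-05, limma), -1.59 within set B and -1.27 within set A (adjusted p = 0.0464).

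The sum of the 3 cyclins fell and its makeup shifted. In scaled RPKM the sum spanned 321 to 557 for thymus and 96.2 to 295 for WT T-ALL, without overlap. Ccnd3 made up 86.3% to 97.0% of the thymus sums and 61.3% to 98.8% of those of WT T-ALL. The Ccnd1 share spanned 0.0740% to 0.370% and 0.430% to 35.8%, the latter with a median of 22.5%. The Ccnd2 share spanned 2.86% to 13.3% and 0.269% to 5.54%, with medians of 11.8% and 1.73%. The groups overlapped in it, since thymus 5 and 6, both of set A, were at 2.86% and 3.42%, where the set B thymus libraries ran from 11.5% to 13.3%. The mean of Ccnd1 was 0.856 scaled RPKM in thymus and 30.0 in WT T-ALL, while that of Ccnd3 was 378 and 137, and in no tumor of this group did Ccnd1 exceed Ccnd3.

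**Figure D2:**
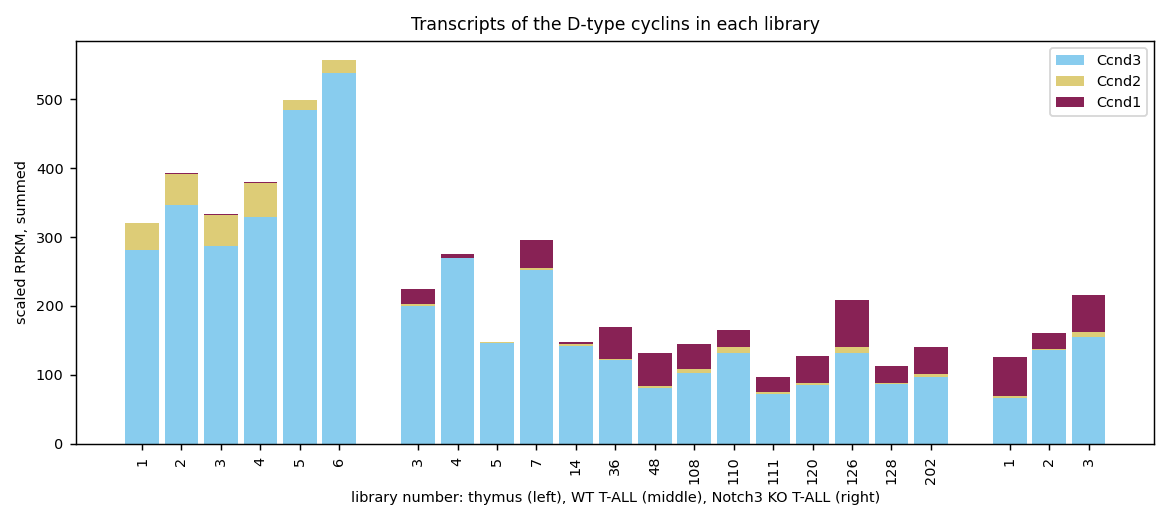
Scaled RPKM of Ccnd3, Ccnd2 and Ccnd1 stacked for each library, thymus on the left, WT T-ALL in the middle and Notch3 KO T-ALL on the right. The thymus bars stand between 321 and 557 with almost no Ccnd1, and the T-ALL bars between 96.2 and 295 with a Ccnd1 share that reaches 45.5% in Notch3 KO T-ALL 1.

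Cdk4 (gene 12567, chromosome 10, 127063534 to 127067920) was the main kinase of the pair, with an SD of 0.20 in thymus and 0.34 in WT T-ALL but 0.70 in Notch3 KO T-ALL. It stood at 6.88, 6.80, 6.79, 6.76, 6.62 and 6.32 in thymus 1 to 6, and WT T-ALL ran from 7.43 over 7.95 to 8.92. Every tumor was above every thymus library. The difference of 1.27 (SE 0.18, adjusted p = 4.39e-06, limma) amounted to 2.42-fold, with 1.20 within set B and 1.40 within set A. Cdk6 (gene 12571, chromosome 5, 3341485 to 3531008) was lower and more variable, at 2.44, 3.78 and 4.48 as lowest, median and highest thymus value and 2.76, 4.50 and 6.03 in WT T-ALL. Of the tumors 7 of 14 exceeded all thymus libraries and none lay below them. The difference of 0.85 (SE 0.39) did not pass the threshold over all genes (adjusted p = 0.0683, limma), while the exact permutation test of this gene alone gave an unadjusted p of 0.0494. Leaving out WT T-ALL 7, the lowest tumor, gave 0.98 (adjusted p = 0.0236), leaving out thymus 4 gave 1.03 (adjusted p = 0.0433) and leaving out thymus 6 gave 0.62 (adjusted p = 0.207, limma), the ends of the range over all libraries left out being 0.62 and 1.03. The difference was 0.42 within set B and 1.72 within set A, neither called.

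Among the inhibitors Cdkn1b (gene 12576, chromosome 6, 134920401 to 134925513), the gene of p27, and Cdkn2d were the most abundant in thymus, with levels that overlapped each other. Cdkn1b was at 6.51, 6.48, 6.61, 6.39, 6.92 and 6.93 in thymus 1 to 6. The lowest, median and highest WT T-ALL libraries read 3.56, 5.19 and 5.88. All tumors lay under all thymus libraries. The difference of -1.57 (SE 0.22, adjusted p = 5.64e-06, limma) meant 2.97-fold lower values and was -1.55 within either set. Cdkn2d (gene 12581, chromosome 9, 21288410 to 21291407) read 6.54, 6.42, 6.53, 6.23, 6.66 and 6.45 in thymus and 4.25, 5.03 and 5.93 at the lowest, median and highest tumor, again without overlap. It was 1.39 lower in WT T-ALL (SE 0.18, adjusted p = 1.43e-06, limma), 1.26 lower within set B and 1.69 within set A.

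The other INK4 genes did not follow. Cdkn2c (gene 12580, chromosome 4, 109660876 to 109667189) spanned 4.53 to 5.28 for thymus and 3.81 to 5.80 for WT T-ALL, with 4 tumors above and 2 below the thymus range. The difference was 0.16 with a 95% interval from -0.28 to 0.61 (adjusted p = 0.539, limma), and it was 0.15 within set B and 0.27 within set A. Cdkn2b (gene 12579, chromosome 4, 89306299 to 89311039) was below the filter. It was at 0.10, 0.16, 0.11, 0.18, 0.00 and 0.00 in thymus 1 to 6, and at 0.05, 0.44 and 2.49 in the lowest, median and highest WT T-ALL library, so that 8 of 14 tumors lay above the thymus range. The difference of 0.42 had an exact permutation p of 0.103. Without WT T-ALL 126, the highest tumor, it was 0.27 (p = 0.0296, exact permutation), and with an offset of 0.1 in place of 1 it was 1.36 (p = 0.0274, exact permutation), so the call for this gene turned on 1 library and on the offset. Summed over Cdkn2b, Cdkn2c and Cdkn2d, INK4 transcripts spanned 96.1 to 138 scaled RPKM for thymus and 40.7 to 89.9 for WT T-ALL. The sum of Cdk4 and Cdk6 spanned 83.5 to 129 and 177 to 495. Neither sum overlapped between thymus and WT T-ALL, and they differed in opposite directions. In Notch3 KO T-ALL 1, 2 and 3 the INK4 sum was 59.6, 107 and 87.5, the second inside the thymus range. The kinase sum there was 313, 139 and 314, above that range.

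Rb1 (gene 19645, chromosome 14, 73183673 to 73325822), the substrate of the kinases, read 5.02, 4.96, 5.24, 5.07, 4.90 and 4.84 in thymus and 3.41, 4.15 and 4.63 at the lowest, median and highest tumor. No library overlapped. The difference of -0.82 (SE 0.17, adjusted p = 0.000457, limma) was 1.76-fold, with -0.90 within set B and -0.65 within set A (adjusted p = 0.251). Lpar6 and Rcbtb2 overlap Rb1 on the opposite strand, as Bysl does Ccnd3, Tspan31 does Cdk4 and 9330179D12Rik does Ccnd2. LTO1, a coding gene not listed under that symbol, overlaps Ccnd1 in the same way. The kits kept strand, but the use of strand in the counting is not given in the sources used here, so reads of these overlaps could be shared.

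One limit applied to several of these calls. The erythroid score (mean log2 of the 8 markers) spanned 0.86 to 2.62 for thymus and 3.87 to 8.29 for WT T-ALL, and with it as a covariate 3 of the 9 genes were called, all lower (Ccnd2, Cdkn2d and Rb1), as 1333 of 11919 genes did in all. Of the calls that were lost, Ccnd3 went to -0.42 (adjusted p = 0.646) and Ccnd1 to 2.32 (adjusted p = 0.254), while Cdk4 was still at 1.08 (adjusted p = 0.0816) and Cdkn1b at -1.10 (adjusted p = 0.153, all limma). In Notch3 KO T-ALL against thymus 1 of the 9 genes, Ccnd2, was called with this covariate, as were 361 of 11919 genes in all. There Ccnd3 went from -1.70 to -0.06 (adjusted p = 0.975), Ccnd1 from 4.56 to 2.69 (adjusted p = 0.449), Cdkn1b from -1.42 to -0.73 (adjusted p = 0.614) and Cdk4 from 1.10 to 0.82 (adjusted p = 0.462, all limma), while Cdkn2d was at -1.98 (adjusted p = 0.0536, limma). Because the score does not overlap between the groups, that fit cannot separate it from them.

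**Figure D3:**
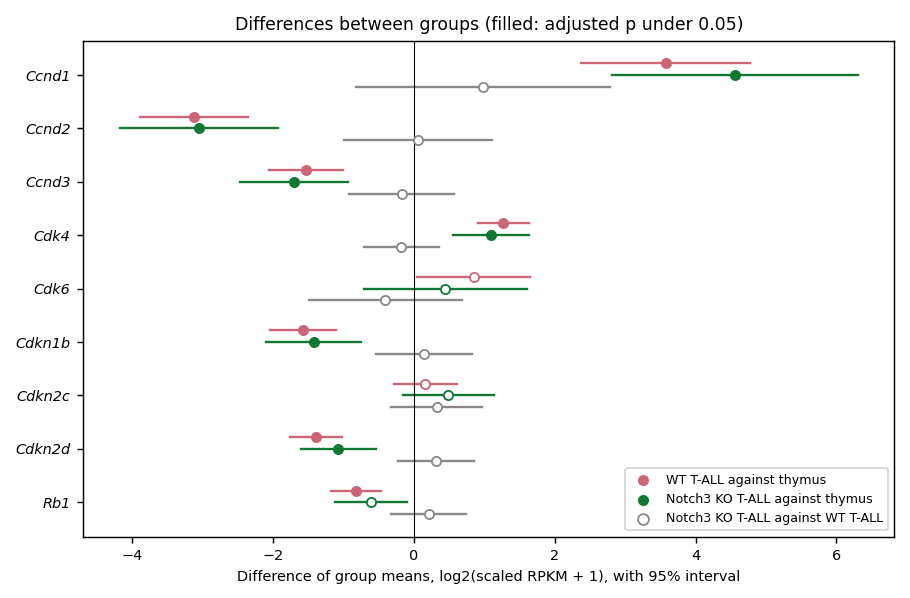
Differences of group means in log2(scaled RPKM + 1) with 95% intervals for the 9 genes that passed the filter, in the 3 comparisons, filled where the adjusted p was under 0.05. Both comparisons with thymus place Ccnd1 and Cdk4 to the right and Ccnd2, Ccnd3, Cdkn1b and Cdkn2d to the left, and all intervals of Notch3 KO T-ALL against WT T-ALL cross 0.

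Notch3 KO T-ALL was set against the same 6 thymus libraries, so this comparison is not independent of the one above. Of the 9 genes 2 were higher, 4 lower and 3 not called, in a background of 37.5% (21.2% higher and 16.3% lower), and 5 of these 6 calls were lost with the erythroid covariate as given above. The 3 libraries did not overlap thymus in these 6 genes, as in 42.3% of all genes (23.9% higher and 18.4% lower). Ccnd1 stood at 5.86, 4.65 and 5.79 in Notch3 KO T-ALL 1, 2 and 3, above all thymus libraries, and was 4.56 higher than in thymus (SE 0.84, adjusted p = 0.000245, limma). Ccnd2 read 1.78, 1.31 and 2.88, under all thymus libraries, and was 3.05 lower (adjusted p = 0.000164, limma). Ccnd3 read 6.07, 7.10 and 7.29, again below the thymus range, and was 1.70 lower (adjusted p = 0.00107, limma). In scaled RPKM the cyclin sum was 126, 161 and 216, with Ccnd1 shares of 45.5%, 15.0% and 25.2%. Notch3 KO T-ALL 1 was the library with the most even mix of Ccnd1 and Ccnd3.

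Cdk4 read 8.12, 6.99 and 8.26 in Notch3 KO T-ALL 1 to 3. All 3 lay above thymus, the second by a small margin, and the difference was 1.10 (adjusted p = 0.00204, limma). Cdk6 read 5.19, 3.78 and 3.19, which crossed the thymus range, and the difference of 0.45 had an interval from -0.71 to 1.61. Without Notch3 KO T-ALL 1 it was -0.12.

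Cdkn1b read 4.72, 5.53 and 5.40, and Cdkn2d 4.94, 5.63 and 5.63. Both lay under every thymus library, by 1.42 (adjusted p = 0.00159, limma) and 1.07 (adjusted p = 0.00249, limma) in the mean. Rb1 read 3.75, 5.13 and 4.32, so that 1 library lay within the thymus range. Its difference of -0.61 had an adjusted p of 0.0598 (limma), and without Notch3 KO T-ALL 2, the highest, it was -0.97 (adjusted p = 0.00521), whereas without Notch3 KO T-ALL 1, the lowest, it was -0.28 (adjusted p = 0.451, limma). Cdkn2c read 4.92, 5.86 and 5.29 and was not called (0.49, adjusted p = 0.222, limma). Cdkn2b read 0.67, 1.19 and 0.85, each above all thymus libraries, an estimated 21 to 44 fragments per library (exact permutation p = 0.0119, the smallest this design can give). All Notch3 KO libraries were in set A. Against thymus 5 and 6 alone the same 6 genes were called, among 2825 of 11234 genes in all, with Ccnd1 at 4.89, Ccnd2 at -2.14, Ccnd3 at -2.18, Cdk4 at 1.32, Cdkn1b at -1.71 and Cdkn2d at -1.15.

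Between Notch3 KO T-ALL and WT T-ALL no gene of the group was called, in a background of 0.617% (72 of 11677 genes, limma), and none had an unadjusted p under 0.05 in limma or in the exact permutation test of all 10. The intervals were wide. For Ccnd1 the difference was 0.98 with a 95% interval from -0.82 to 2.79, for Ccnd2 0.06 (-0.99 to 1.11) and for Ccnd3 -0.17 (-0.92 to 0.57). Cdk4 differed by -0.18 (-0.71 to 0.36), Cdk6 by -0.41 (-1.49 to 0.68), Cdkn1b by 0.15 (-0.53 to 0.82), Cdkn2d by 0.32 (-0.23 to 0.86) and Rb1 by 0.21 (-0.32 to 0.74). Cdkn2c differed by 0.33 (-0.32 to 0.97). A difference of 1 on the log2 scale was thus within the interval for Ccnd1 and Ccnd2 upward and for Cdk6 downward, and outside it for the other 6. Within set A, 3 against 4 libraries, the Ccnd1 difference was 2.13 (adjusted p = 0.518) and that of Ccnd3 -0.91 (adjusted p = 0.381). Ccnd2 and Cdkn2d differed there by 0.59 and 0.54, Cdk4, Cdk6 and Rb1 by -0.08, -0.41 and 0.18, and Cdkn1b and Cdkn2c by -0.16 and -0.04, against the sign over all libraries, none of them called. For Cdkn2b the difference of 0.39 (exact permutation p = 0.281) became 0.54 without WT T-ALL 126 (exact permutation p = 0.00536).

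Tumor by tumor, Ccnd1 was the most variable of the group. Its SD over the 14 WT T-ALL libraries was 1.56, larger than that of 98.8% of 11476 genes, whereas Ccnd2 and Cdk6 had SDs of 0.86 each, Ccnd3 0.59, and Cdk4 and Rb1 0.34 and 0.35. The spread came from 3 tumors. WT T-ALL 4, 14 and 5 stood at 2.60, 2.05 and 0.71, and the other 11 ran from 4.51 to 6.11. The 11 neighboring expressed genes on chromosome 7 had median deviations from their WT T-ALL medians of 0.02, -0.12 and 0.08 in these libraries. In all 3 the D-type cyclin transcripts were almost purely Ccnd3 (97.9%, 96.1% and 98.8%). Cdk4 read 7.96, 8.92 and 8.02 there, the second the highest of the group, and Cdk6 5.10, 3.59 and 5.32. Libraries 4 and 5 belonged to set A and 14 to set B.

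**Figure D4:**
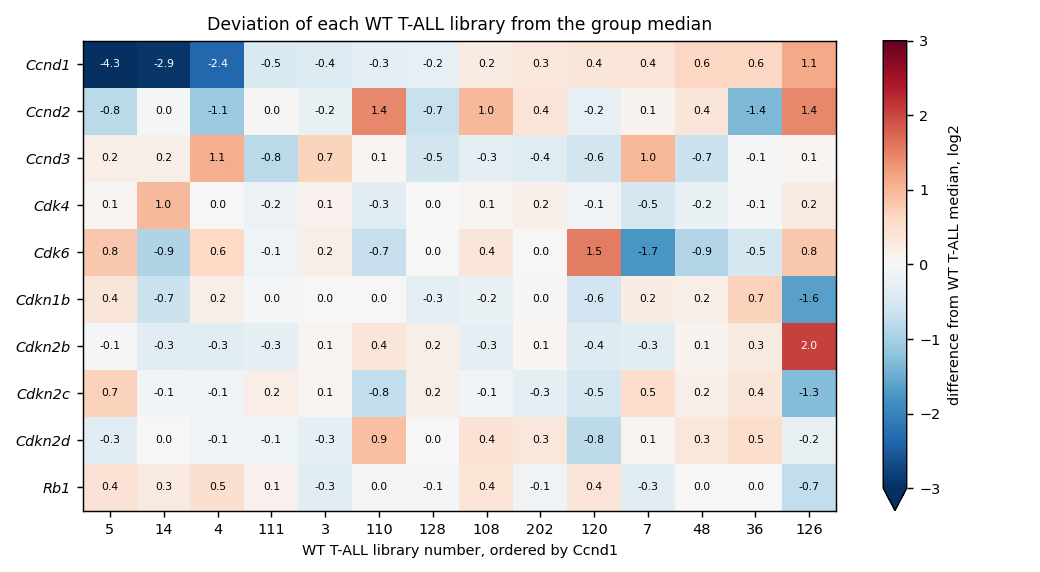
Difference of each WT T-ALL library from the group median in log2 for the 10 genes, libraries ordered by Ccnd1, with colors that saturate at -3 and 3. Libraries 5, 14 and 4 stand out for low Ccnd1, and library 126 for high Ccnd1, Ccnd2 and Cdkn2b beside low Cdkn1b, Cdkn2c and Rb1.

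WT T-ALL 126 was at an extreme for 6 of the 10 genes. It had the highest Ccnd1 (6.11), the highest Cdkn2b (2.49, the next at 0.81) and, with library 110, the highest Ccnd2 (3.35), together with the lowest Cdkn1b (3.56), Cdkn2c (3.81) and Rb1 (3.41). Its p27 transcript was 1.63 below the group median. The 20 expressed genes around Cdkn2b had a median deviation of -0.12 in this library, those around Cdkn1b of 0.05 and those around Cdkn2c of 0.34. Those around Rb1 were at -0.30, with 14 of the 20 below their medians, beside -0.74 for Rb1 itself. Cdkn2a, which lies next to Cdkn2b and encodes p16 and p19ARF, was highest in this library as well, at 8.62, where the other WT T-ALL libraries ran from 0.97 to 4.56. Among the Notch3 KO libraries, number 2 had the highest Cdkn2a (7.79) and also the highest Cdkn2b (1.19).

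Cdk6 was carried by single tumors at both ends, with WT T-ALL 120 at 6.03 and WT T-ALL 7 at 2.76. Library 120 also had the lowest Cdkn2d, at 4.25. Library 110 had the highest Cdkn2d (5.93) and a Cdk6 of 3.81. Cdk4 exceeded Cdk6 in every library, and made up 78.1% to 97.8% of the kinase sum in WT T-ALL and 83.4% to 94.7% in thymus.

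Pairs of genes were examined over the 14 WT T-ALL libraries. Of the 36 pairs among the 9 detected genes, 5 had a permutation p under 0.05 unadjusted and none after adjustment over the 36. The strongest was Cdkn1b with Cdkn2c (Pearson r = 0.77, permutation p = 0.00275, adjusted p = 0.099; Spearman rho = 0.58, permutation p = 0.034, adjusted p = 0.482). Without the 2 libraries farthest in Cdkn1b, 36 and 126, its r was 0.48, and within set B, 10 libraries, it was 0.75. Ccnd2 and Cdkn2c ran opposite (r = -0.67, permutation p = 0.00733, adjusted p = 0.132; rho = -0.53, permutation p = 0.0536, adjusted p = 0.482), but r was -0.31 without libraries 110 and 126, so the relation rested on them, and -0.74 within set B. Cdk6 and Cdkn2d had r = -0.61 (permutation p = 0.0202, adjusted p = 0.242; rho = -0.62, permutation p = 0.0197, adjusted p = 0.482), with -0.59 without libraries 7 and 120 and -0.70 within set B.

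The genes whose levels ran most like each member across the 14 libraries are given as a description. They share libraries, depth and host cells with the member. For Ccnd1 they included Cyth4 (r = 0.78) and Plod1 (0.76). For Ccnd2 they were Wdfy4 (0.89), Fgd2 (0.87) and Gab2 (0.86). For Ccnd3, Actn2 (0.87), Rmi2 (0.87) and Cyth2 (0.84) led, but r within set B was 0.47, 0.29 and 0.63, lower than over both sets. For Cdk4 Mrpl49 led (0.93), for Cdk6 Gltscr1l (0.89), for Cdkn1b Zcchc6 (0.92), for Cdkn2c Armcx5 (0.88), for Cdkn2d Tmem120a (0.88) and for Rb1 Arl8b (0.89).

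Ccnd2 was set against 6 marker scores, each named for a host cell type, across the tumors. The neutrophil score had r = 0.74 and rho = 0.72 with Ccnd2, and r = 0.56 without libraries 108 and 110. The macrophage score had r = 0.74 and rho = 0.66, with r = 0.61 without libraries 36 and 108. Within set B the values were 0.70 and 0.66. The erythroid score had r = 0.58 and rho = 0.58 with Ccnd2, r = 0.70 without libraries 5 and 7 and 0.64 within set B. The megakaryocyte score had r = 0.42, which was 0.06 without libraries 36 and 108, and the stromal and endothelial scores had r = 0.30 and 0.20. The fall of Ccnd2 against thymus was -3.32 without libraries 108 and 110, which had the highest neutrophil scores. Ccnd1 ran against the proliferation score of 8 genes (r = -0.63, rho = -0.76, and -0.64 within set B), as did Cdkn2d (r = -0.55, rho = -0.57, and -0.52 within set B). Rb1 ran with that score (r = 0.64, rho = 0.62, and 0.62 within set B). Ccnd2 had r = -0.49 and rho = -0.56 with it, but r = -0.12 without libraries 110 and 126. Ccnd3 ran against the erythroid score (r = -0.64, rho = -0.60, -0.50 without libraries 5 and 7) and a score of stromal markers (r = -0.62, rho = -0.57, -0.21 without libraries 4 and 7), but within set B the values were -0.05 and -0.13. The stromal score rested mainly on Col1a2 and Pdgfrb, whose WT T-ALL means were 27.3 and 42.4 scaled RPKM. Col1a1, Col3a1, Pdgfra and Dcn had means of 0.0368 to 0.248 there. Whether this score followed stromal cells was not tested. All of these correlations are descriptions with no test.

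The other genes of the G1 to S control were read from a list of 28. In WT T-ALL 11 were higher than in thymus, 5 lower and 12 not called, with a median difference of 0.33 against 0.08 over all genes and the same background of 51.6%. The largest rises were in Cdkn2a, which spanned 0.05 to 0.26 for thymus and 0.97 to 8.62 for WT T-ALL (difference 3.07, SE 0.85, adjusted p = 0.00452, limma), in Cks1b, a cofactor of p27 destruction (1.35, adjusted p = 2.8e-07), and in Skp2, the ubiquitin ligase subunit that recognizes p27 (1.15, adjusted p = 6e-06). Of the E2F genes, E2f1, E2f3 and E2f6 rose together with their partner Tfdp1, while E2f2 fell by 1.32 (adjusted p = 4.1e-05) and E2f7 was also lower. The largest fall was in Rbl2, the gene of the pocket protein p130 (-1.52, adjusted p = 3.15e-08, thymus 4.97 to 5.28 and WT T-ALL 2.96 to 4.28). Fbxw7, a ubiquitin ligase gene that acts on cyclin E, Myc and Notch1 proteins, fell by 0.71 (adjusted p = 0.000431), and Ambra1, whose product directs the destruction of D-type cyclins, was lower too. Ccne1, Ccna2, Ccnh and Cdc25a were among the rises. With the erythroid score as a covariate 6 of the 28 were called, namely E2f1, E2f3, Tfdp1, Skp2, Cks1b and, lower, Rbl2, among 1333 of 11919 genes in all, while Cdkn2a (3.88, adjusted p = 0.196), E2f2 (-1.39, adjusted p = 0.075) and Fbxw7 (-0.16, adjusted p = 0.783, all limma) were not. Within set A 9 were called, among 1709 of 11234 genes, without Cdkn2a (3.43, adjusted p = 0.0946) and Fbxw7 (-0.60, adjusted p = 0.107, both limma). Within set B 13 were called, among 4920 of 11512 genes, with Cdkn2a (2.93, adjusted p = 0.0372) and Fbxw7 (-0.73, adjusted p = 0.000588, both limma) among them.

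**Figure D5:**
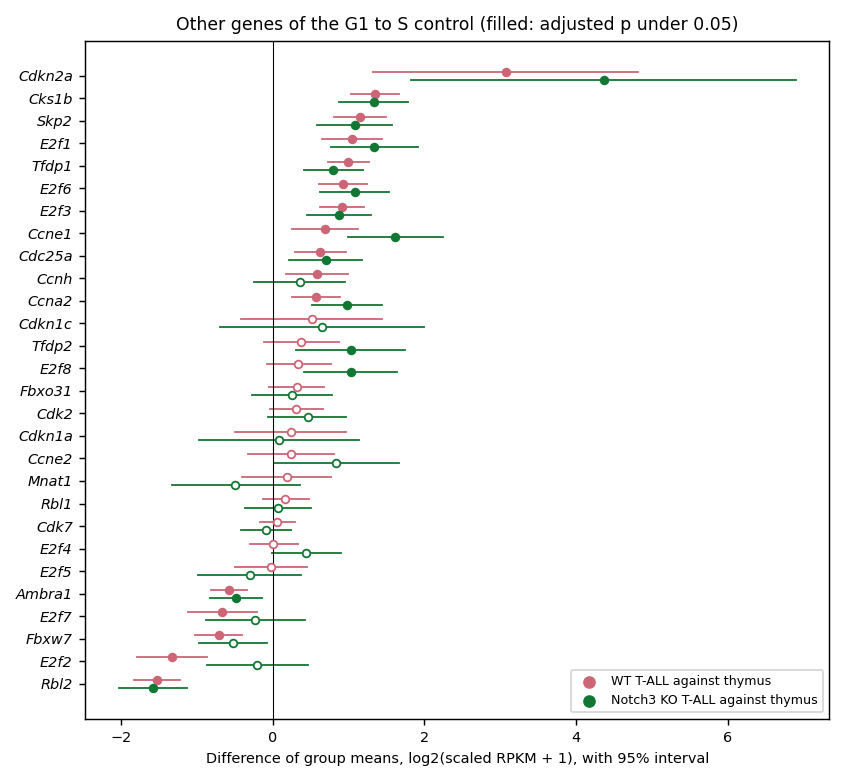
Differences from thymus in log2(scaled RPKM + 1) with 95% intervals for 28 other genes of the G1 to S control, WT T-ALL and Notch3 KO T-ALL, filled where the adjusted p was under 0.05. In both groups Cdkn2a stands furthest to the right and Rbl2 furthest to the left, and E2f2, E2f7, Fbxw7 and Ccnh are filled in WT T-ALL but not in Notch3 KO T-ALL, and Tfdp2 and E2f8 the other way round.

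In Notch3 KO T-ALL, against the same thymus libraries, 12 of the 28 were higher, 2 lower and 14 not called, beside 37.5% of all genes called (21.2% higher and 16.3% lower). With the erythroid covariate 3 were called, among 361 of 11919 genes, and within set A 13, among 2825 of 11234. E2f2 spanned 5.82 to 6.65 for thymus, 4.05 to 5.68 for WT T-ALL and 5.22 to 6.60 for Notch3 KO T-ALL, and its difference between the T-ALL groups was 1.11 with an adjusted p of 0.115 (limma). None of the 28 was called between the T-ALL groups. Notch1 and Myc, which act upstream of D-type cyclin transcription, were both 1.87 higher in WT T-ALL than in thymus (adjusted p = 1.58e-06 and 1.6e-07, limma). Across the 14 WT T-ALL libraries their mean log2 value had r = -0.34 with Ccnd1, -0.57 with Ccnd2 and 0.27 with Ccnd3. Within set B these were 0.29, -0.44 and -0.24, and a link between these levels was not tested. All 8 proliferation markers were higher in WT T-ALL and 7 of 8 in Notch3 KO T-ALL, beside 29.3% and 21.2% of all genes.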

How the data were processed

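Total RNA of 6 thymus, 14 WT T-ALL and 3 Notch3 KO T-ALL samples was made into stranded mRNA libraries and sequenced as paired ends. The OSA aligner in ArrayStudio mapped the reads to the mm10 transcriptome, as the study's methods state. The authors deposited log2 values of RPKM, whose 75th percentile lay at 3.458 to 3.459 in every library, which is log2(scaled RPKM + 1) with RPKM scaled to a common 75th percentile. The values were used as deposited, 27 gene symbols that had become dates were restored by gene identifier, and read counts are not part of the table. Depth was estimated from the smallest step between low values of 5725 genes with 1 transcript, for which 69.4% to 77.4% of low values lay within 0.1 of whole fragments. No counting interval was built on it.

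Genes that reached a scaled RPKM of 1 in 3 or more fitted libraries were tested with limma 3.58.1 in R 4.3.3 (trend and robust), with Benjamini-Hochberg adjustment over all of them and a threshold of 0.05. A single fit of the 3 groups served both comparisons with thymus, and the T-ALL groups were compared in a fit of their own. Each member was also given a two-sided exact permutation test, unadjusted. Correlations used 100000 permutations. Each sample was 1 mouse, so p-values cover the spread between mice. Positions came from GENCODE on GRCm38. The members and lists were chosen with earlier results of these data known. All 10 members are named. Of the 28 further genes those called in WT T-ALL against thymus may be named, with values for the 3 largest rises and falls (Ccne1 and the others without values, and E2f2 in Notch3 KO T-ALL chosen after its values were seen), and for likeness the genes with the highest Pearson r, predicted genes left out and 1 gene not reported here. The library sets were found after the values were seen. Statistics were tested on simulated data. Alternatives were other offsets and filters, quantile normalization, limma without trend, other groups in the fit, an erythroid covariate, the library set, a replicate block and leaving out each library. Lists of megakaryocyte, endothelial, stroma, thymic epithelium and B cell markers held 5, 5, 6, 6 and 5 genes, of which 5, 2, 2, 2 and 4 passed the filter. Of those tested, 5, 1, 2, 0 and 0 were higher and 0, 1, 0, 1 and 4 lower in WT T-ALL than in thymus (29.3% and 22.3% of all genes). The untested stroma genes Col1a1, Col3a1, Pdgfra and Dcn had means of 0.0368 to 0.248 scaled RPKM in WT T-ALL. Col1a2, at a mean of 0.0352 in thymus, passed the filter through the T-ALL libraries.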

Additional observations from a re-analysis of the deposited data

How the results depend on the processing

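Counts of called genes moved by over 1.5 times under few settings. With the erythroid score as a covariate, 3 of the 9 genes were called in WT T-ALL against thymus and 1 in Notch3 KO T-ALL against thymus, and 6 and 3 of the 28 further genes (1333 and 361 of 11919 genes in all). Within set A, 9 of the 28 were called in WT T-ALL against thymus (1709 of 11234 in all). For Notch3 KO T-ALL against WT T-ALL, 1 of the 28 was called with all 3 groups in 1 fit (254 of 11919 in all). Quantile normalization and the erythroid score left the number of called pairs at 0. Within set B no fit was possible for Notch3 KO T-ALL. Leaving out each library in turn gave 7 to 8 members and 16 to 17 of the 28 for WT T-ALL, 6 to 7 and 10 to 15 for Notch3 KO T-ALL, and 0 and 0 to 1 between the T-ALL groups, while 45.7% to 53.3%, 24.1% to 36.2% and 0.0259% to 1.76% of all genes were called.

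The replicate numbers shared by thymus and T-ALL libraries did not pair them: same-numbered libraries had correlations of deviations from -0.24 to 0.15. With the replicate block on those libraries, 4 members and 10 of the 28 were called for WT T-ALL, and 6 and 11 for Notch3 KO T-ALL (3630 of 10828 genes in all). In WT T-ALL the calls of Ccnd1 (1.74, adjusted p = 0.0893), Ccnd3 (-0.84, adjusted p = 0.11) and Rb1 (-0.72, adjusted p = 0.101, all limma) were lost, with 1942 of 10546 genes called in all. That fit held only WT T-ALL 3, 4 and 5, all of set A, and thymus 3, 4 and 5, of which 3 and 4 were in set B. WT T-ALL 4 and 5 were among the tumors with low Ccnd1, at 2.60 and 0.71.

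Reversed differences were all within uncalled genes. Between the T-ALL groups Ccnd2 (0.06) became -0.03 under quantile normalization, -0.76 with the erythroid score, and -0.02, -0.04 and -0.38 without WT T-ALL 4, WT T-ALL 36 and Notch3 KO T-ALL 3. Ccnd3 became 0.31 with the erythroid score and 0.20 without Notch3 KO T-ALL 1, Cdk4 0.22, Cdkn1b -0.01 and Rb1 -0.15 without Notch3 KO T-ALL 2, and Cdk6 0.02 without Notch3 KO T-ALL 3. Cdkn1b and Cdkn2c became -0.16 and -0.04 with the library set as a term or within set A. Cdk6 against thymus became -0.12 without Notch3 KO T-ALL 1. Leaving out each library in turn, the differences between the T-ALL groups ran from -0.38 to 0.41 for Ccnd2, -0.41 to 0.20 for Ccnd3, -0.41 to 0.22 for Cdk4, -0.97 to 0.02 for Cdk6, -0.01 to 0.40 for Cdkn1b, 0.07 to 0.55 for Cdkn2c, 0.20 to 0.55 for Cdkn2d and -0.15 to 0.54 for Rb1, and for Notch3 KO T-ALL against thymus from -0.12 to 0.88 for Cdk6, 0.24 to 0.71 for Cdkn2c and -0.97 to -0.28 for Rb1. No member called in the comparisons with thymus lost its call when 1 library was left out. The causes were not tested. The alternative without libraries 108 and 110 was added after the data were seen and changed no call.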
